A study of Rattus norvegicus with 60 samples.

Results

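The loci described here surround parts of the immune receptor genes Ccrl2, Il20ra and Il18r1, and methylated DNA in and around them was compared between blood cells and brain, between ages and between prenatal groups of rats. The members were all regions of DNA methylation lying within 100 kb of one listed region in each gene, counted on the rat genome build Rn6. These listed regions were chr8:119324904-119325855 in Ccrl2, placed by the study across an intron/exon boundary, chr1:15191610-15192035 in an intron of Il20ra and chr9:47189340-47190123 in an intron of Il18r1. A region was formed wherever peaks of different samples overlapped by 1 bp or more, and it was retained when at least 3 of the 60 samples had a peak in it. Of 456185 regions retained across the genome, 169 were members, with 58 in the Ccrl2 locus, 54 in the Il20ra locus and 57 in the Il18r1 locus. The Ccrl2 and Il20ra regions had been selected on methylation contrasts of alcohol-exposed animals with both control groups in hypothalamus, and the Il18r1 region was chosen by such contrasts over both tissues on P22. Differences between prenatal groups in those same samples are therefore given as a description only, whereas the tissue and age contrasts were not used to choose the loci.

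Ccrl2 codes for a chemokine receptor-like protein of leukocytes and other cells that binds the attractant chemerin and presents it to neighbouring cells without the usual signalling. Il20ra codes for a chain of the receptors for a group of related cytokines that act mainly on epithelia, and Il18r1 for the chain that binds interleukin-18, a cytokine that acts on T cells and natural killer cells and has receptors in brain as well. In mammals, DNA is methylated mostly at cytosines followed by guanine (CpG), and the pattern inside genes and at distant regulatory elements differs between cell types and changes as tissues mature. The assay, meDIP-seq, pulls down DNA fragments with an antibody against methylated cytosine, so that a peak marks a stretch with many methylated CpGs. It gives enrichment and not the percent of molecules that are methylated.

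The study asked whether alcohol before birth alters DNA methylation in the developing hypothalamus, and whether any change is shared with white blood cells (WBC). All animals were female Sprague-Dawley rats, and they fell into 3 prenatal groups according to what their mothers received during pregnancy. PAE dams were given a liquid diet with ethanol. Each PF (pair-fed) dam received as much liquid diet as a matched PAE dam ate, with maltose-dextrin replacing the ethanol. C (control) dams ate pellets freely. Hypothalami were taken on postnatal days 1, 8, 15 and 22 (P1, P8, P15 and P22; the titles of the youngest samples say P0, whereas their age label and the study say day 1), and WBC from trunk blood on P22 from the animals that gave the P22 hypothalami, with 4 samples for each prenatal group, age and tissue. In all, 48 hypothalamus and 12 WBC samples were measured, each from 1 animal, and both are mixtures of cell types, so that a change in the proportions of cells and a change within cells cannot be told apart.

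Sequencing depth differed between sets. The fragments used for peak calling numbered between 12521572 and 17029204 in P1 hypothalamus (median 13757600), between 14697682 and 18648425 on P8 (median 17620381) and between 14545396 and 22156238 on P15 (median 19909238). On P22, hypothalamus had between 16498609 and 18030851 fragments (median 17150603), and 11 WBC samples between 11910384 and 15467157 (median 14638089). The WBC samples thus had fewer fragments than any P22 hypothalamus, yet their median number of peaks was higher, 208783 against 154742. Values are given as scaled height, the number of fragments covering the highest point of a peak after division by a factor for each sample, and the lowest, median and highest scaled heights of a set refer to its samples with a peak. For differences on the log2 scale, a sample without a peak was placed at a floor of 6.35, as was any peak below it, so that such differences are measured from the limit of detection.

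The sample labelled PF 15 WBC did not look like blood. It held 16.3% of 3132 regions with a peak in each of the other WBC samples and in no P22 hypothalamus, whereas the other 11 WBC samples held 86.6% to 95.3% (median 94.5%) of such regions when each was left out in turn. It also held 78.2% of 1396 regions found in each P22 hypothalamus and in no other WBC sample, where the other WBC samples held 1.76% to 4.45%. For hypothalamus the corresponding shares were 3.03% to 9.53% of WBC regions and 87.8% to 97.8% of hypothalamus regions, so the sample lay far from the WBC and nearer to the hypothalamus, though outside its range in both shares. It was left out of the tissue comparison, which then held 22 samples of 11 animals, and its values are given beside the counts of calls and many of the named regions.

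How often a member held a peak differed between the loci. Peaks were present in a median of 17 samples per Ccrl2 member, 27.5 per Il20ra member and 11 per Il18r1 member, against 17 over all regions, and 8 of the 169 members (4.73%) had a peak in all 60 samples, against 4.49% of all regions. Median lengths were 748.5, 777 and 702 bp, against 740 bp. In hypothalamus but in no WBC sample, PF 15 WBC left aside, 34 members (20.1%) had a peak, against 22.9% of all regions. In WBC but in no hypothalamus, 7 members (4.14%) had one, against 2.51%, of which 5 lay in the Ccrl2 locus, none in the Il20ra locus and 2 in the Il18r1 locus.

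Regions with a peak in 2 samples, which were left out, are set beside those with a peak in 3 samples, the fewest retained. In the Ccrl2 locus, the 5 regions with a peak in 2 samples had scaled heights from 8.22 to 18.7 (median 10.1), and the 5 with a peak in 3 samples from 5.73 to 17.4 (median 11.5). In the Il20ra locus, 8 regions in 2 samples ranged from 5.24 to 32.2 (median 16.6), and the 2 regions in 3 samples from 7.84 to 14.9 (median 12.5), so there the regions left out had the higher median. In the Il18r1 locus the medians were 10.7 for 4 regions in 2 samples and 12.8 for 2 regions in 3 samples. At the edge of the window, the outermost Ccrl2 members lay 99825 and 99696 bp away, at chr8:119224330-119225079 and chr8:119425551-119426344, and the first regions beyond it 103175 and 103121 bp away.

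Peaks per sample in the Ccrl2 locus were most numerous in WBC, with 22 to 31 members holding a peak (median 26), and fewest in P22 hypothalamus, with 10 to 21 (median 16.5). P1, P8 and P15 hypothalami had medians of 23.5, 22 and 19, and the PF 15 WBC sample had 20. The Il20ra locus showed 23 to 31 in WBC (median 27) and 22 to 30 in P22 hypothalamus (median 24), and the Il18r1 locus 17 to 27 (median 25) and 15 to 23 (median 20.5). WBC and P22 hypothalamus did not overlap in the Ccrl2 locus and overlapped widely in the others. Genome-wide, 11 WBC samples had 167809 to 215888 peaks and P22 hypothalami 146319 to 175849, so WBC tended to have more peaks in the whole lists too, with overlapping ranges, and the dependence of the Ccrl2 counts on total peak number was not tested.

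The region overlapping the listed Ccrl2 region, chr8:119324637-119326162 (1526 bp), was a region of the young hypothalamus. It had a peak in 11 of 12 P1 hypothalami (scaled height 14.4 to 30.5, median 18.0) and in 11 of 12 P8 hypothalami (9.05 to 29.8, median 15.0). On P15 it was called in 2 of 12 samples, at 12.4 in C 10 and 16.4 in PAE 12, and on P22 in 3 of 12, at 21.0 in PF 14, 17.4 in PAE 15 and 14.3 in PAE 16. Of 11 WBC samples none had a peak there, while the PF 15 WBC sample had one of 18.0. The scaled heights of the few later peaks thus lay within the range of the early ones, and what differed between ages was how many samples had a peak. Whole lists held a median of 193833 peaks on P1, 201747.5 on P8, 180130.5 on P15 and 154742 on P22. Whether the counts at the Ccrl2 region depend on these totals was not tested.

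Over the 4 ages, limma's F test called the Ccrl2 region (adjusted p = 0.00728), and P22 lay below P1 by a log2 difference of -1.13 (SE 0.30, limma adjusted p = 0.0163). Without breeding cohort in the model the difference was also -1.13 (limma adjusted p = 0.000122). Cohort Dev-3 alone, which held animals of both ages, had peaks in 5 of 6 P1 and 1 of 6 P22 samples. Its difference of -1.13 is the same by construction, because Dev-3 sets this contrast when breeding cohort is in the model. The limma adjusted p in Dev-3 alone was 0.181, and the call was also lost without the samples numbered 1 (-0.97, adjusted p = 0.151) or 13 (-0.84, adjusted p = 0.208). When samples without a peak were left out, the sign turned, to 0.23 over 27 samples. All P22 samples were immunoprecipitated in a round of their own and no extraction round held more than 1 age, so age and these rounds cannot be told apart.

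Between tissues on P22, the Ccrl2 region differed by -0.40 (SE 0.20, WBC minus hypothalamus, limma adjusted p = 0.185), with the WBC lower in 3 of 11 animals and both tissues at the floor in the other 8. With the PF 15 pair kept, the difference was -0.24. With extraction round in the model it was 0.093, but the only round with both tissues had no peak at this region in either. The sign of the tissue difference cannot be read from that value.

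Because the Ccrl2 region was listed for contrasts between prenatal groups in hypothalamus, its values by group are a description. On P1 the C animals had scaled heights of 14.4, 19.4 and 17.4 and no peak in C 2, the PF animals 17.9, 18.0, 14.8 and 17.7, and the PAE animals 26.2, 30.5, 18.7 and 26.6. Of the PAE samples 3 lay above all C and PF samples, and PAE 3 lay below C 3. On P8 the C animals had 15.3, 16.9 and 9.05 with no peak in C 6, the PF animals 14.9, 14.2, 15.0 and 11.7, and the PAE animals 14.8, 18.1, 29.8 and 16.7. PAE 6 and PAE 7 were above every control on P8, and the other PAE samples lay among them. Mean log2 scaled heights (± SD, n = 4) fell in the order PAE P1 (4.65 ± 0.30), PAE P8 (4.25 ± 0.45), PF P1 (4.09 ± 0.14), PF P8 (3.79 ± 0.17), C P1 (3.73 ± 0.73) and C P8 (3.46 ± 0.66). Below these came PAE P22 (3.32 ± 0.77), PF P22 (3.10 ± 0.86), PAE P15 (3.01 ± 0.68) and C P15 (2.91 ± 0.48), with PF P15, C P22 and each WBC group at the floor. Neighbours in this order differed by less than 1 SD of one of them, except PF P1 and PF P8, whose samples still overlapped. Over all ages the fitted log2 difference was 0.60 (SE 0.19) for PAE minus C, 0.38 for PAE minus PF and 0.22 for PF minus C, and in both P22 tissues together PAE minus C was 0.32. WBC had not been used to list the region, but with no peak in 4 C, 4 PAE and 3 PF samples the two-sided exact permutation tests of PAE vs. C and PAE vs. PF could only give p = 1.0, which was also the smallest p possible.

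The region at Il18r1, chr9:47189340-47190177 (838 bp), was called in 8 of 60 samples and was low in most of them. P1 hypothalamus had 3 peaks, 6.80 in C 3, 7.40 in PF 3 and 6.06 in PAE 1, there was none on P8 or P15, and P22 hypothalamus had 1, of 14.5, in PF 13. In WBC, C 13, C 14 and C 16 had scaled heights of 6.70, 12.2 and 9.14, and PF 13 had 9.02, while none of 4 PAE samples had a peak. Several of these heights sit close to the floor, and no group had a peak in every sample. PAE minus C over both P22 tissues, the contrast from which the region was listed, was -0.04 in the fit used here.

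The log2 difference at the Il18r1 region between WBC and hypothalamus was 0.08 (SE 0.12, limma adjusted p = 0.64), with WBC higher in 3 animals and lower in 1 of 11. Without the animals of one number it ranged from -0.01 (number 14) to 0.183 (number 13), and with a lower floor it was 0.351, in no case with a call. P22 minus P1 was 0.20 (SE 0.10, limma adjusted p = 0.221). This value rests on the single P22 sample PF 13, and over the sets without the samples of one number it ranged from 0.0 to 0.40, the highest with a limma adjusted p of 0.0369 when number 14 was left out. The earlier ages had not been used to list the region, so prenatal groups were tested there, with labels exchanged within ages. Each group had 1 peak among its 12 samples of P1, P8 and P15, and PAE minus C was -0.0082 and PAE minus PF -0.0184 (two-sided exact permutation test, 24 samples and 343000 arrangements each, p = 1.0 and Benjamini-Hochberg p = 1.0, the smallest p possible being 1.0).

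No retained region overlapped the listed Il20ra region. Only 1 sample had a peak there, C 14 of the P22 hypothalami, at chr1:15191629-15191950 (322 bp) with 18 fragments at its highest point and a scaled height of 18.6. The tests planned for a region at this place could therefore not be made, and the Il20ra locus is described through its 54 members. The nearest of them were chr1:15185233-15186209, 5401 bp below and called in 51 samples, and chr1:15194656-15195414, 2621 bp above and called in 14. Their log2 differences between WBC and hypothalamus were 0.31 (SE 0.22, limma adjusted p = 0.321) and 0.27 (SE 0.22, limma adjusted p = 0.42), and neither passed the age tests.

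The comparison of WBC with hypothalamus asked which members carry different methylation in the tissues of the same animals. In limma, with the animal as a block and FDR under 0.05 over all regions, 19 of 169 members (11.2%) were higher in WBC, where 13.0% of all regions were, and 16 (9.47%) were higher in hypothalamus, where 7.54% were. The share called in either direction, 20.7%, was close to the 20.6% of all regions, and the median log2 difference was 0.03 over the members and 0.04 over all regions, so the loci as a group did not stand apart. With the PF 15 pair kept, 20 and 16 members were called, against 13.2% and 7.8% of all regions. Scaling by fragment number gave 42 and 9, against 26.3% and 5.68% of all regions. Extraction round in the model gave 4 and 1, against 2.21% and 0.867%. In the fit with extraction round, which had no animal block, the tissue difference rests on 1 WBC sample and 2 hypothalami. Of the 19 and 16 calls, by locus, 9 members were higher and 2 lower in WBC around Ccrl2, 6 and 7 around Il20ra, and 4 and 7 around Il18r1. The PF 15 WBC sample had a peak in 11 of the 19 WBC-higher members, where the other WBC samples had 14 to 19 and P22 hypothalami 3 to 9, and in 12 of the 16 hypothalamus-higher members, where the ranges were 7 to 11 and 13 to 16.

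In the Il20ra locus the clearest tissue difference among all members was at chr1:15125359-15126120, 65490 bp from the listed region. Its scaled heights in WBC were 24.9, 22.7, 19.1 and 18.3 in C 13 to C 16, 28.0, 26.5 and 31.6 in PF 13, PF 14 and PF 16, and 20.9, 35.0, 31.0 and 27.1 in PAE 13 to PAE 16. None of 12 P22 hypothalami had a peak, nor did PF 15 WBC, so the tissues were fully separate. The log2 difference was 2.00 (SE 0.10, limma adjusted p = 1.05e-07), measured from the floor, with WBC higher in 11 of 11 animals. It was not a blood peak alone, since 6 of 12 P1 and 6 of 12 P8 hypothalami had one too, at 14.2 to 17.9 and 13.1 to 24.5, the P8 heights overlapping with those of WBC, while P15 had 1. A neighbour at chr1:15113097-15114086 had peaks in all 11 WBC samples (28.8 to 41.1, median 32.5; PF 15 WBC 20.7) and in 4 of 12 P22 hypothalami (15.1 to 36.5), with a difference of 1.76 (SE 0.31, limma adjusted p = 0.00216) in 10 of 11 animals.

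The same locus held the members that were most strongly higher in hypothalamus. At chr1:15287418-15289224 all P22 hypothalami had a peak (21.0 to 41.2, median 28.2), and 9 of 11 WBC samples had a lower one (6.62 to 15.2, median 10.8; PF 15 WBC 18.0), which did not overlap with them. The difference was -1.59 (SE 0.19, limma adjusted p = 0.000172), lower in WBC of 11 animals. At chr1:15127636-15129684, close to the WBC-higher region described first, 12 of 12 P22 hypothalami (15.3 to 29.7, median 22.9) but 4 of 11 WBC samples (12.7 to 13.1; PF 15 WBC 16.2) had a peak, with a difference of -1.43 (SE 0.19, limma adjusted p = 0.000276) in 11 animals. Opposite tissue differences thus lay side by side in this locus. The member with the largest mean height, chr1:15215238-15216843, had a peak in all 60 samples, from 27.4 to 55.0 in WBC (median 39.3; PF 15 WBC 35.15) and 26.8 to 37.8 in P22 hypothalamus (median 28.0), and differed by 0.47 (SE 0.11, limma adjusted p = 0.00897, higher in WBC of 10 of 11 animals), a call lost without the animals numbered 13 and, at 0.05 (adjusted p = 1.0), with extraction round in the model.

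Around Ccrl2, chr8:119268421-119269198 had a peak only in blood, and so met the minimum of 3 samples through WBC alone. C 13 and C 15 had scaled heights of 17.2 and 14.3 with none in C 14 and C 16, PF 13, PF 14 and PF 16 had 20.8, 15.4 and 14.8, and PAE 13 to PAE 16 had 17.1, 19.9, 14.6 and 16.6. None of 48 hypothalami of any age had a peak there, and neither had PF 15 WBC. The difference was 1.13 (SE 0.18, limma adjusted p = 0.00113), above the floor in 9 of 11 animals. With extraction round in the model it was 0.105, a value that rests on C 16, the only WBC sample of the shared round, which had no peak. Nothing is read from the test of this region, because WBC alone, where the region is high, retained it. At chr8:119236681-119237633, 10 of 11 WBC (17.2 to 32.3, median 25.9) and 4 of 12 P22 hypothalamus samples (17.4 to 22.3) had a peak, and PF 15 WBC had none. The difference was 1.22 (SE 0.35, limma adjusted p = 0.031, 9 of 11 animals). Its call was lost with fold enrichment and without the animals numbered 14, 15 or 16, while the difference stayed between 0.65 and 2.29 in the 14 ways of processing run for it.

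The 2 Ccrl2 members higher in hypothalamus were chr8:119232440-119233176 and chr8:119275394-119276540. The first had 17.2 to 36.6 in P22 hypothalamus (median 28.0) and a peak in 7 of 11 WBC samples (13.1 to 24.6, median 17.1; PF 15 WBC 15.3), and it differed by -1.15 (SE 0.27, limma adjusted p = 0.0124) in 11 of 11 animals, a call lost without the animals numbered 14 or 16, with fragment scaling and, at -0.57 (adjusted p = 1.0), with extraction round in the model. The second had 16.5 to 42.3 in hypothalamus (median 27.2) and a peak in 9 WBC samples (9.12 to 20.0, median 14.3; PF 15 WBC 18.0), with a difference of -1.13 (SE 0.18, limma adjusted p = 0.00111) in 11 animals. Their ranges overlapped between tissues, although within each animal the order was the same. The tallest member, chr8:119332402-119333815, present in all 60 samples, had medians of 31.6 in WBC and 27.3 in P22 hypothalamus and did not pass the test (0.20, SE 0.09, limma adjusted p = 0.165).

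Around Il18r1, chr9:47102548-47103099 was likewise found in blood and in none of 48 hypothalami, so that it too met the minimum of 3 samples through WBC alone. The 4 C samples had scaled heights of 17.2, 20.1, 22.0 and 17.4, PF 13 and PF 14 had 16.2 and 21.4, PAE 14 and PAE 16 had 20.8 and 17.5, and PF 16, PAE 13, PAE 15 and PF 15 WBC had no peak. The difference was 1.15 (SE 0.23, limma adjusted p = 0.00417), above the floor in 8 of 11 animals. Nothing is read from this test either, because WBC alone retained the region. Its call was lost without the animals numbered 14, while the difference stayed between 0.80 and 1.87 in 15 ways of processing. At chr9:47137087-47138142, 7 of 11 WBC samples had a peak (11.9 to 23.5, median 15.2) and no P22 hypothalamus had one, with a difference of 0.86 (SE 0.22, limma adjusted p = 0.0185). Its call was lost without the animals numbered 13 or 14, with the difference between 0.56 and 2.104 in 15 ways of processing. PF 15 WBC had a peak of 9.92 there.

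Higher in hypothalamus around Il18r1 were chr9:47217854-47218750, with a peak in 9 of 12 P22 hypothalami (18.8 to 45.9, median 25.9) and in 1 of 11 WBC samples (8.55; PF 15 WBC 11.7), and chr9:47114016-47114698, with one in all 12 (19.0 to 37.7, median 25.1) and in 9 of 11 (11.1 to 16.5, median 13.1; PF 15 WBC 16.2). The first differed by -1.41 (SE 0.28, limma adjusted p = 0.00468) in 8 of 11 animals and lost its call without the animals numbered 14 or 16, and the second by -1.11 (SE 0.15, limma adjusted p = 0.000272) in 11 of 11, with no overlap between tissues. The tallest member, chr9:47128476-47129602, had a peak in each sample, 18.3 to 35.1 in WBC (median 25.7; PF 15 WBC 19.8) and 30.6 to 46.5 in P22 hypothalamus (median 38.8). It was lower in WBC of 11 animals (-0.53, SE 0.09, limma adjusted p = 0.00178), a call lost with fold enrichment or fragment scaling. Over 15 ways of processing its difference ranged from -0.583 to -0.0076, so in 1 of them it was close to 0.

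Tissue and DNA extraction round were nearly the same division of the samples, since 1 of the 5 rounds that held these samples held both, with 1 WBC sample (C 16) and 2 hypothalami (C 16 and PF 13). The fit with the round in the model held 23 samples and no animal block, and its tissue difference rests on that 1 round, with 1 WBC sample. It cannot separate tissue from round in the other samples, so effect sizes alone are given. In that fit the log2 difference was 1.63 at chr1:15125359-15126120 and 1.38 at chr8:119390157-119390901. Of the 35 calls, 2 changed sign there, chr9:47193593-47194155 (from 0.55 to -0.11) and chr9:47273485-47274101 (from -0.88 to 0.21). The last 3 of these were singled out after their values were seen. Of the other named calls, these moved toward 0: chr1:15287418-15289224 (to -0.759), chr8:119232440-119233176 (-0.57), chr9:47114016-47114698 (-0.491), chr9:47128476-47129602 (-0.515), chr9:47217854-47218750 (-1.09), chr8:119268421-119269198 (0.105) and chr1:15215238-15216843 (0.05). Farther from 0 were chr1:15113097-15114086 (2.73), chr1:15127636-15129684 (-1.58), chr8:119236681-119237633 (2.29), chr8:119275394-119276540 (-1.56), chr9:47102548-47103099 (1.44), chr9:47137087-47138142 (2.104) and chr9:47243573-47244788 (-1.54).

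The 4 ages asked how the members change as the hypothalamus matures. With limma's F test, 13 of 169 members (7.69%) differed between ages, against 7.51% of all regions, 5 around Ccrl2, 2 around Il20ra and 6 around Il18r1. From means of extraction rounds, the F test called 9 members, against 4.28% of all regions, and 2 of the 13 calls were kept. In P22 minus P1, 8 members (4.73%) rose, against 3.59% of all regions, and 3 (1.78%) fell, against 3.56%, and the median difference was 0.0 in the members and in all regions. These shares are near the background, so age did not set the loci apart. With scaling by fragment number the split turned, to 7 higher and 16 lower, against 3.29% and 13.8% of all regions. By locus, 2 rose and 1 fell around Ccrl2, none in either direction around Il20ra, and 6 rose and 2 fell around Il18r1. P8 minus P1 called 0 members in limma and 0.0136% of all regions, with 9 members (5.33%) at an unadjusted p under 0.05 against 6.35% of all regions. P15 minus P1 called 0 and 0.259%, with 15 (8.88%) against 9.73%.

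Around Ccrl2, chr8:119275394-119276540 was called higher on P22 than on P1, and it was also among the members higher in hypothalamus than in WBC. On P1 its scaled heights were 8.78, 14.6 and 10.9 in C 1, C 3 and C 4 with no peak in C 2, 13.2, 10.8, 17.3 and 18.8 in PF 1 to PF 4, and 19.2, 13.8, 12.8 and 12.7 in PAE 1 to PAE 4. On P22 they were 18.7, 16.5, 29.9 and 42.3 in C 13 to C 16, 26.8, 28.8, 31.8 and 26.9 in PF 13 to PF 16, and 21.5, 24.5, 27.9 and 27.5 in PAE 13 to PAE 16. Only C 13 and C 14 on P22 lay within the P1 range, and the medians rose from 13.2 on P1 to 19.6 on P8, 22.4 on P15 and 27.2 on P22. P22 minus P1 was 0.98 (SE 0.18, limma adjusted p = 0.000615), and in the 26 ways of processing run for this region it stayed between 0.59 and 1.19 with an adjusted p of at most 0.0309. Its neighbour chr8:119285170-119286919 had medians of 14.8, 20.5, 21.1 and 25.5 at the 4 ages, with a peak in 9, 11, 12 and 12 samples. It rose by 1.13 (SE 0.27, limma adjusted p = 0.00724), a call lost in Dev-3 alone, without the samples numbered 1 or 14, with fold enrichment and with fragment scaling, at adjusted p up to 0.19.

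Around Il18r1, the median number of members with a peak per sample was 21, 21, 18.5 and 20.5 at the 4 ages, so peaks as a whole did not become more numerous, while single members rose or fell. At chr9:47217854-47218750 the number of samples with a peak was 3 on P1 (10.4 to 15.5), 6 on P8 (14.9 to 21.4), 7 on P15 (12.6 to 29.5) and 9 on P22 (18.8 to 45.9). P22 minus P1 was 1.51 (SE 0.49, limma adjusted p = 0.0492). Its call was lost in 15 of 26 ways of processing, among them the sets without the samples numbered 1, 2, 13, 14 or 16, while the difference stayed between 1.15 and 2.18. At chr9:47243573-47244788 the numbers were 1, 4, 5 and 9, with scaled heights of 7.62 on P1 and 13.4 to 22.5 on P22, and 2 of 11 WBC samples had a peak. It rose by 1.20 (SE 0.33, limma adjusted p = 0.0206), a call lost in Dev-3 alone and without the samples numbered 1, 2 or 13. The difference stayed between 0.69 and 2.03 in 27 ways of processing. At chr9:47273485-47274101, singled out after its values were seen, the numbers were 0, 3, 6 and 9, with a difference of 1.17 (SE 0.28, limma adjusted p = 0.00609).

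The members that fell were, beside the Ccrl2 region itself, chr9:47094911-47095437 and chr9:47137087-47138142 in the Il18r1 locus. The first had a peak in 5 P1 samples (13.6 to 18.0), 1 on P8 (15.0), 1 on P15 (16.7) and none on P22 or in WBC, so that it met the minimum of 3 samples only through P1. On P1 these were C 1 at 17.6, C 2 at 18.0, C 3 at 13.6, PF 2 at 18.0 and PAE 2 at 17.7. P22 minus P1 was -0.99 (SE 0.24, limma adjusted p = 0.00708). Nothing is read from this test, because P1, where the region is high, was needed to retain the region. Its call was lost in Dev-3 alone and without the samples numbered 2 or 14, with the difference between -1.66 and -0.49 in 27 ways of processing. The second had a peak in 3 P1 samples, C 1 at 8.78, C 2 at 11.2 and PF 2 at 11.7, and in no later hypothalamus, so that its call (-0.36, SE 0.08, limma adjusted p = 0.00493) rests on those 3 samples. The SE is pooled over all ages, and every P8, P15 and P22 hypothalamus lay at the floor without spread. It therefore does not measure the spread among the P1 samples. That call was lost without breeding cohort in the model, with means of extraction rounds, in Dev-3 alone and with the stricter peaks. Its difference ranged from -0.86 to -0.066 in 27 ways of processing.

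The P22 hypothalamus samples are part of both the tissue and the age comparison, so for some members called in both the direct values are set side by side. At chr8:119275394-119276540, P22 minus P1 was 0.98 and WBC minus hypothalamus -1.13. At chr9:47243573-47244788 they were 1.20 and -0.98 (limma adjusted p = 0.00645), at chr1:15287418-15289224 0.89 (limma adjusted p = 0.0681, ages together 0.0152) and -1.59.

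In the contrasts fitted between prenatal groups, no member passed the threshold. In hypothalamus of all ages, limma called 0 members and 0.0% of all regions in PAE vs. C, with 12 members (7.1%) at an unadjusted p under 0.05 against 4.74% of all regions and 0.944 as the lowest adjusted p. PAE vs. PF called 0 members and 0.0% of all regions, with 10 at an unadjusted p under 0.05 (4.73% of all regions), and PF vs. C called 0 and 0.0%, with 11 (5.32%). In both P22 tissues together, PAE vs. C called 0 members and 0.000219% of all regions, with 10 members at an unadjusted p under 0.05 (4.25% of all regions) and 0.939 as their lowest adjusted p. Effects that differ between groups were tested too. The interaction of tissue and prenatal group called 0 members in limma and 0.043% of all regions, with 7 members (4.14%) at an unadjusted p under 0.05 against 4.24% of all regions. That of age and prenatal group called 0 and 0.102%, with 14 (8.28%) against 5.79% and 0.0523 as the lowest adjusted p of a member. Since the loci were listed from these contrasts, nothing is read from their counts.

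The nearest member on each side of the Ccrl2 region did not follow it over the ages, while some members farther away had similar counts. The members nearest to the Ccrl2 region, 1369 bp below at chr8:119322798-119323535 and 1464 bp above at chr8:119327319-119328316, had a peak in 1 and 2 of 12 P1 hypothalami, where the Ccrl2 region had 11, and in 3 and 6 of 12 on P22, where it had 3. Their P22 minus P1 differences were 0.85 (limma adjusted p = 0.174) and 0.42 (limma adjusted p = 0.611). Most like the Ccrl2 region across the 59 samples without PF 15 WBC was chr8:119339801-119340322, 13946 bp away (Pearson r = 0.427, Spearman rho = 0.425), with peaks in 7, 5, 4 and 1 samples at the 4 ages and in 1 of 11 WBC. Nearly as close was chr8:119300281-119301145 (r = 0.427, rho = 0.418), named after its values were seen, with peaks in 10, 11, 5 and 1 samples and 3 WBC. Its F test over ages gave a limma adjusted p of 0.0233. These correlations share the ages, tissues and depths of the samples and are descriptions; within the 48 hypothalami r was 0.368 and 0.394.

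Beside the Il18r1 region, chr9:47182728-47184219 (5121 bp below) had a peak in 59 of 60 samples, with medians of 18.9, 16.6, 22.6 and 17.3 at the 4 ages and 15.3 in WBC, and chr9:47191673-47192374 (1550 bp above) in 9 samples, 6 of them WBC (6.98 to 11.9). Neither passed the tissue test (limma adjusted p = 0.0876 and 0.0825) or the age tests. By Pearson r, the member most like the Il18r1 region over the 59 samples was chr9:47165302-47165730, 23610 bp away (r = 0.352, Spearman rho = 0.283), which had a peak in 5 WBC samples (13.3 to 19.7) and in none of 48 hypothalami. Nearly as close by r and closer by rho was chr9:47102548-47103099 (r = 0.345, rho = 0.429).

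Other immune genes for which the study lists a region gave values in 4 cases. At Tifa, an adaptor protein of innate signalling, chr2:232135305-232136373 had a peak in 57 samples and medians of 24.0, 21.3, 21.8 and 19.8 at the 4 ages and 17.9 in WBC, with P22 minus P1 at -0.87 (SE 0.23, limma adjusted p = 0.014) and no tissue difference passing the test (0.001, limma adjusted p = 1.0). At Nlrp1a, an inflammasome sensor, chr10:57734995-57735716 had a peak in 6 samples, 4 of them P22 hypothalami. At Ifih1, a sensor of viral RNA, chr3:48561508-48561985 had 4, all in hypothalamus. At Fgf9, a growth factor listed with them, chr15:38377620-38378027 had 7, 4 of them in WBC, and a tissue difference of 0.47 (limma adjusted p = 0.114).

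Neighbouring genes of Il20ra and Il18r1 are given by order only, from RefSeq on build GRCr8, since the peaks are on Rn6. Around Il20ra lie Olig3, Ifngr1 and Il22ra2, the latter both cytokine receptor genes, and LOC102547604, Slc35d3 and Pex7. Around Il18r1 lie Il1r1, Il1rl2 and Il1rl1 and then Il18rap, Slc9a4 and Slc9a2, so that it sits within a row of receptors of the interleukin-1 family. Which of them each member region overlaps was not determined.

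The promoters of Ccrl2 and Il18r1 are shown because an antibody to methylated cytosine enriches mainly stretches that hold CpGs. They are RefSeq sequences of 300 bases on GRCr8, from 250 bases before to 50 after the start of the gene, 5′ to 3′ on the strand of the gene, with CpG in capitals, and their place among the Rn6 peaks was not determined. That of Ccrl2 (chr8:119914924-119915223, minus strand) held 8 CpGs and 50.7% G and C, and that of Il18r1 (chr9:50223241-50223540, plus strand) 10 CpGs and 55.0%. Of 33469 rat promoters of this length, 55.7% held as few CpGs as Ccrl2 or fewer and 61.0% as few as Il18r1 or fewer, with a median of 7, so neither was rich in them.
Ccrl2 promoter: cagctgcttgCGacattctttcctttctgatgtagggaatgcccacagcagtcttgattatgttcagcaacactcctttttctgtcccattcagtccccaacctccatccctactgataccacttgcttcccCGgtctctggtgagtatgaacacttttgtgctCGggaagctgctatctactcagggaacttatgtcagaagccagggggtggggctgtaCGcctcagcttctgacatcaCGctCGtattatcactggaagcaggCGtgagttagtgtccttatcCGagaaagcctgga
Il18r1 promoter: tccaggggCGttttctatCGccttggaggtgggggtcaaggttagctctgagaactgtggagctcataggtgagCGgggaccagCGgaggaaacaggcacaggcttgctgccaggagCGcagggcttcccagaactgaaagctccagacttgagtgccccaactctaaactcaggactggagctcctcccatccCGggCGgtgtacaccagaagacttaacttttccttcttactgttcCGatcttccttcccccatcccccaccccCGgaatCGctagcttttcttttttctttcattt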

How the data were processed

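The data are meDIP-seq peak lists of 60 samples. Reads were aligned to Rn6 with BWA and filtered with SAMtools by the authors, who then ran MACS2 (2.1.0.20140616, per the file headers) separately for every sample, with no control and a q-value limit of 0.05. The signal the authors deposited is the height of each summit, the number of fragments covering it, not scaled to depth. The deposited fold enrichment is its ratio to the local background, and the deposited -log10 q-value was corrected by the authors' caller within a sample. Depth ranged from 11910384 to 22156238 fragments. A list holds no value where no peak was called, so changes below that limit cannot be seen.

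Peaks of all samples were merged at an overlap of 1 bp, and regions found in 3 or more samples were retained. Each sample's tallest summit inside a region was scaled by that sample's median ratio to the average, taken from the 20470 regions called in all 60 lists. Values entered the fits as log2, with a floor of 6.35, which is the typical smallest scaled height of a list (the median of 60). Fits over all regions used limma 3.58.1 in R 4.3.3 with a trend and Benjamini-Hochberg FDR under 0.05, after testing on simulated data. The tissue fit held the animal as a block, the age fit prenatal group and breeding cohort, and the prenatal fits extraction round and breeding cohort, with tissue added on P22 (23 samples). With breeding cohort in the model, P22 minus P1 is set by Dev-3, the cohort with both ages. Other steps were run in Python (3.11.15; pandas 2.3.3, scipy 1.17.1, numpy 2.4.6).

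The pairing of WBC and hypothalamus of 1 animal comes from the labels and the study's methods. Deviations of the 11 pairs from their group means correlated at 0.032 to 0.06 (median 0.045) over 154944 regions.

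Named regions were those overlapping the listed regions, the nearest on each side, the tallest of each locus, the 2 largest changes in each direction among the tissue calls and among the P22 minus P1 calls of each locus, and the member with the highest Pearson r with each listed region. The members and lists were chosen with earlier results of these data known. Alternatives covered measure, peak threshold, sample minimum, floor, scaling, covariates, block, window and left-out samples, and fits of regions with a peak in 3 or more of the samples compared were added after the data were seen. Gene annotation of Rn6 and read counts were not used here. The neighbouring genes of Ccrl2 are not reported here.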

Additional observations from a re-analysis of the deposited data

Results flagged for a closer look

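The Ccrl2 region chr8:119324637-119326162 had a scaled height of 14.8 in PF P1 hypothalamus 3, apart from the other 3 samples of that group, which lay between 17.7 and 18.0. Its gap to the nearest of them exceeded Dixon's 95% limit for 4 samples, in 1 of 4 groups examined, where chance gives about 1 group in 20. In the PF 15 WBC sample, which was left out of the tissue comparison, the same region had a peak with a scaled height of 18.0, while none of the other 11 WBC samples had one there.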

How the results depend on the processing

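Counts of called members moved with the batch terms and with scaling. The percentages in brackets are shares of all regions called. Members higher in WBC (19) numbered 4 (2.21%) with extraction round in the model, 42 (26.3%) with scaling by fragment number, and 8 to 13 (7.0% to 9.43%) without the animals of one number. Members higher in hypothalamus (16) numbered 1 (0.867%), 9 (5.68%) and 9 to 15 (4.09% to 5.69%). With extraction round in the model, the tissue difference rests on 1 WBC sample and 2 hypothalami. With fragment scaling, the median log2 difference of all regions was 0.16 in place of 0.04, and the split was 42 and 9 in place of 19 and 16. In P22 minus P1 the median was -0.13 in place of 0.0. The split there was 7 (3.29%) and 16 (13.8%) in place of 8 and 3, where fold enrichment gave 6 (2.47%) and 4 (5.35%). Members differing between ages (13) numbered 24 (13.2%) without breeding cohort, 7 (7.8%) with fold enrichment, 25 (17.3%) with fragment scaling and 5 to 17 (4.67% to 7.51%) without the samples of one number. From means of extraction rounds they numbered 9 (4.28%), and 2 of the 13 calls were kept. Those higher on P22 than P1 (8) numbered 15 (7.88%) without breeding cohort, 1 (1.57%) in Dev-3 alone and 3 to 9 (1.59% to 3.8%) without one number, and those lower (3) numbered 10 (9.77%), 0 (1.15%) and 2 to 4 (1.03% to 3.46%), with 7 (6.88%) from means of extraction rounds. Fewer samples enter Dev-3 alone and the fits without one number; otherwise the cause was not tested.

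Without the animal as replicate block, 23 members were higher in WBC and 18 higher in hypothalamus, and the 35 calls of the paired fit were all kept. Between prenatal groups in hypothalamus, and for PAE vs. C in P22 tissues, 0 members were called in each alternative, the replicate block included. That block joins samples of different groups that bear the same number. In hypothalamus such pairs correlated at -0.053 to 0.032 (48 pairs), and 21 of 48 samples were closest to their own number. The closest was sought among samples of the same age in the other groups. Whether the numbers mark real pairs was not determined. For ages no block by these numbers could be fitted, since they are nested in age. A separate animal number in the labels recurs at several ages within a breeding cohort for some samples. The age fits did not use it and treated such samples as independent, and what it marks was not determined.

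The Ccrl2 region's P22 minus P1 difference was 0.23 in place of -1.13 with samples without a peak left out, a setting that by construction takes no account of how many samples had a peak. Without one number it ranged from -1.42 to -0.84, and the region's WBC minus hypothalamus difference from -0.54 to -0.32. For the latter, extraction round in the model gave 0.093, with no peak in either tissue in the only shared round. A window of 50 kb held 30, 27 and 31 members around Ccrl2, Il20ra and Il18r1, and merging hypothalamus samples alone 47, 53 and 53. Alternatives for the listed Il20ra region could not be run, as no retained region overlaps it. Calls for regions found in few samples rest on presence or absence at the depth of each list.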
